A study of Mus musculus with 16 samples.

Results

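The genes followed here encode the mitotic kinases Plk1, Aurka, Aurkb, Nek2 and Melk, the Aurora A activator Tpx2, and the chromosomal passenger proteins Incenp, Birc5 and Cdca8. The 9 genes were chosen by symbol, and every probe set that the array annotation gave to 1 of these symbols alone was taken, whatever its values. This found 12 of the 22626 probe sets tested, which belong to 8 of the 9 genes. Cdca8, which encodes borealin, has no probe set of its symbol in the annotation used here and has no value below. Incenp had 3 probe sets, Aurkb and Tpx2 had 2 each, and Plk1, Aurka, Nek2, Melk and Birc5 had 1 each.

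RNA was profiled from 9 metastases and 7 primary lung adenocarcinomas of p53R172H∆g/+ K-rasLA1/+ mice, with 1 Affymetrix array per tumor. Every tumor, the primary tumors included, arose in this genotype, which combines a mutant p53 allele with a latent oncogenic K-ras allele that recombines spontaneously in scattered cells. Mouse 1 gave metastases of the liver, the inguinal region and the subcutis or body wall, and mouse 2 a liver metastasis. Mouse 3 gave metastases of the heart, a mediastinal lymph node and the subcutis, and mouse 4 of a mediastinal lymph node and the parietal pleura. The primary tumors of mice 1 to 4 are called matched here, and the other 3, from mice 5 to 7, had no profiled metastasis. All tumors came from males except the primary tumor of mouse 6. Ages are not given in the sources used here. Tumors were dissected free of neighbouring tissue but not sorted into cell types, so fewer cells that express a gene and less RNA per cell cannot be told apart. Metastases of 1 mouse share their animal and their primary tumor. The 9 metastases come from only 4 independent animals, and p-values of fits that include them measure the spread between tumors. The 7 primary tumors come from 1 mouse each.

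Passage through mitosis is driven by protein kinases that act in turn. Plk1 works at centrosomes, kinetochores and the cleavage site, and Aurora A, held on spindle microtubules by Tpx2, builds the bipolar spindle. Aurora B is the catalytic subunit of the chromosomal passenger complex, in which Incenp is the scaffold and survivin, the product of Birc5, and borealin bring the complex to centromeres. The complex corrects faulty attachments of chromosomes to the spindle and then acts in cytokinesis. Transcripts of these genes accumulate late in the cell cycle, and promoters of such genes in mouse and human often hold a cell cycle genes homology region (CHR) and CCAAT boxes, the binding sites of NF-Y.

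Promoter windows of 300 bases, 250 before and 50 after the annotated start, were read from the RefSeq table of build GRCm38.p6, which held 5 of the 8 measured genes (Plk1, Aurka, Nek2, Melk and Birc5). Aurkb, Incenp and Tpx2 are named only. Both strands were searched for TTTGAA, the letters of the CHR, and for CCAAT, and no match overlapped another. The 100 bases before the start are shown to compare the genes, with each CCAAT in capitals. The RefSeq gene span of Aurka, on the minus strand, reaches to 172370886, so all of its stretch lies inside the span. The spans of Nek2 and Melk begin at 191821449 and 44300909, so the last bases of their stretches lie inside them.
Plk1, chr7:122159335-122159434, plus strand: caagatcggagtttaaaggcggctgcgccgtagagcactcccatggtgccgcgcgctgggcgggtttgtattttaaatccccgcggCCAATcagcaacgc
Aurka, chr2:172370571-172370670, minus strand: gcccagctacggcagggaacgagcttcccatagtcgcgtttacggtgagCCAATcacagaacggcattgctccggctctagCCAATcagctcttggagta
Nek2, chr1:191821373-191821472, plus strand: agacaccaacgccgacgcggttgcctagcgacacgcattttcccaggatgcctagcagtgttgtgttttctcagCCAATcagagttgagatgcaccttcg
Melk, chr4:44300817-44300916, plus strand: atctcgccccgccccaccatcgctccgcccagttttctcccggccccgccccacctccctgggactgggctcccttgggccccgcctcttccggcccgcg
Birc5, chr11:117849137-117849236, plus strand: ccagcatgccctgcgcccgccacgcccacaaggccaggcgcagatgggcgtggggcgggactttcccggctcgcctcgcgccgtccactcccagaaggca

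TTTGAA lay downstream of the start of Plk1, at bases 31 to 36, and of Aurka, at bases 33 to 38. The 30 bases around each match are shown with TTTGAA in capitals, because these were the only 2 of the 5 measured genes whose window held it.
Plk1, chr7:122159453-122159482, plus strand: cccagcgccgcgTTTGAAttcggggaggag
Aurka, chr2:172370521-172370550, minus strand: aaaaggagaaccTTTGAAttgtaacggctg
CCAAT was found in 3 of the 5 windows, once in Plk1 and at 2 places each in Aurka and Nek2. In all 32851 windows of this length, 17.9% held TTTGAA and 37.4% held CCAAT. A match of letters is a description of the window, and a window without a match says only that these letters are not in it.

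The deposited values are model-based intensities on a linear scale, with an array median between 75.0 and 85.5, and no detection calls were used here. The 25th percentile of all values was 24.3, and the mean over 16 tumors was under that level for Melk and for the dimmer Aurkb probe set (1451246_s_at), whose ratios therefore rest on low intensities. Arrays correlated at 0.900 to 0.969 over 120 pairs. Xist read 124 to 205 in the 15 tumors labelled male and 987 in the tumor labelled female. Fold changes were taken on log2 values with a floor of 1, and each comparison was fitted in limma over all 22626 probe sets.

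The first comparison was paired, with the mouse as a block, so that every metastasis met the primary tumor from the same animal. All 12 probe sets had a positive difference, and the median over the 8 genes, each at its brightest probe set, was 0.75 log2 units, against −0.01 over all genes. The fitted folds ran from 1.07 for Nek2 to 2.50 for Birc5. At an unadjusted p of 0.05 in limma, 8 of 12 probe sets were higher in metastases, where 4.28% of all probe sets were. Counted by gene this was 5 of 8, against 4.35% of all genes. After Benjamini-Hochberg adjustment over all probe sets, 0 of 12 passed 0.05, where 0.0133% of all probe sets passed as higher. The methods' t-test over the 9 ratios counts the metastases of 1 mouse as independent. After the same adjustment it called 2 of 12 as higher, Birc5 and Incenp 1439436_x_at, and 1.15% of all probe sets as higher. Birc5, Aurka, 1 Incenp and 1 Aurkb probe set were higher in 9 of 9 metastases than in the matched tumor, a pattern that 1.81% of all probe sets had.

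**Figure D1:**
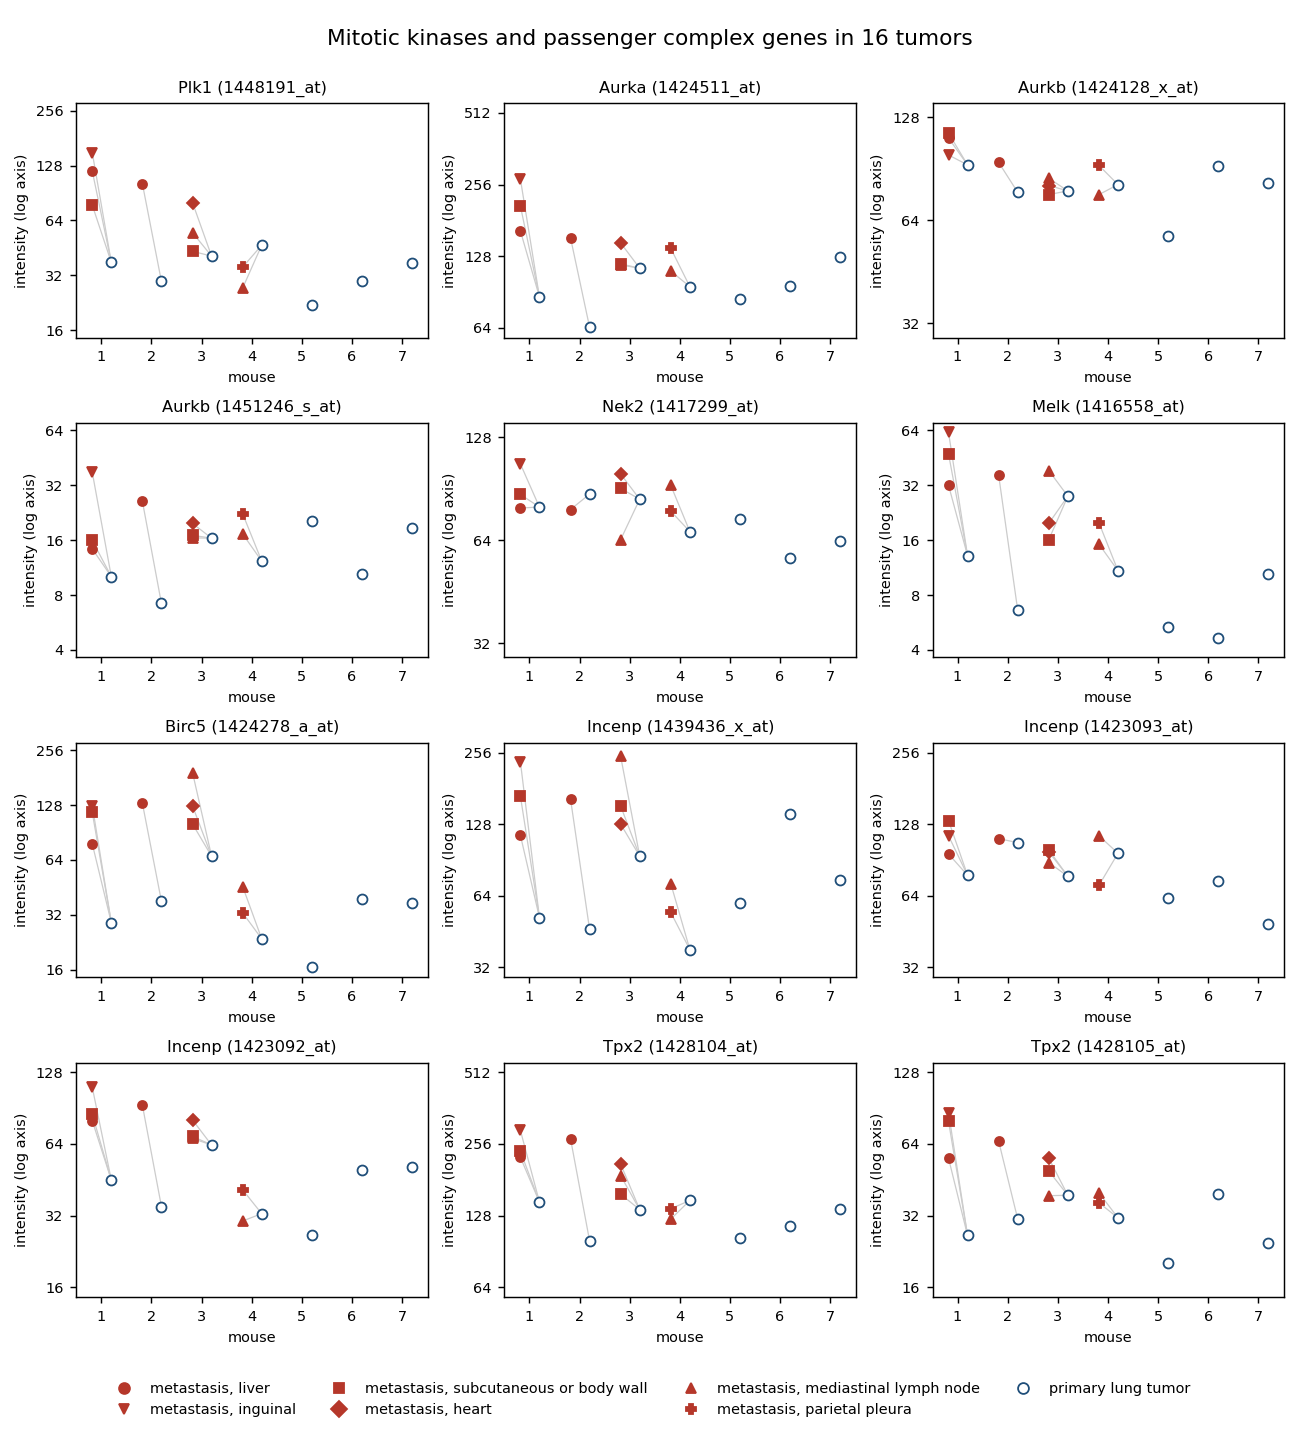
Intensity (log axis) of the 12 probe sets in 16 tumors by mouse, with metastases as filled symbols shaped by site and primary tumors as open circles, joined by lines within a mouse. Most metastases of mice 1 and 2 lie above their primary tumor, while Plk1 and Tpx2 (1428104_at) of mouse 4 lie below it.

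Plk1, the Polo-like kinase that drives mitotic entry and spindle assembly, was higher than in the matched primary tumor in 7 of 9 metastases. In mouse 1 it read 151 in the inguinal, 119 in the liver and 77.6 in the body wall metastasis, against 37.7 in the primary tumor. In mouse 2 the liver metastasis read 102, against 29.6 in the primary tumor. All 4 of these metastases were more than 2-fold above their primary tumor. In mouse 3 Plk1 read 80.1 in the heart, 54.8 in the lymph node and 43.3 in the subcutis, against 40.7 in the primary tumor. In mouse 4 it read 27.2 in the lymph node and 35.5 in the pleura, against 46.8 in the primary tumor. The metastases of mouse 4 thus lay below their primary tumor and inside the range of all primary tumors, 22.1 to 46.8. The matched difference was 0.77 log2 units (SE 0.36), with an unadjusted p of 0.0561 and an adjusted p of 0.456 in limma.

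Aurka, the kinase of spindle poles, was higher in all 9 metastases. It read 271, 208 and 164 in the inguinal, body wall and liver metastases of mouse 1, against 86.3 in the primary tumor. In mouse 2 it read 153 in the liver metastasis, against 64.4 in the primary tumor. The gap was narrow in mouse 3, where the metastases read 145, 119 and 118 and the primary tumor 114. In mouse 4 the metastases read 138 in the pleura and 111 in the lymph node, against 95.3 in the primary tumor. The matched difference was 0.73 log2 units (SE 0.21, adjusted p = 0.216 in limma), a 1.66-fold higher level.

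Tpx2, which targets Aurora A to spindle microtubules and activates it, had 2 probe sets. At 1428104_at the 3 metastases of mouse 1 read 292, 238 and 225, against 146 in the primary tumor, and the metastasis of mouse 2 read 269, against 100 in the primary tumor. The metastases of mouse 3 read 211, 188 and 158, against 136 in the primary tumor. Those of mouse 4 read 124 and 137, against 148 in the primary tumor, so that here, as for Plk1, both lay below it. At 1428105_at, 8 of 9 metastases were above their primary tumor, and the lymph node metastasis of mouse 3 was level with it, at 38.8 against 39.0. The matched differences were 0.56 (SE 0.21, adjusted p = 0.320) and 0.77 log2 units (SE 0.22, adjusted p = 0.205 in limma).

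Birc5, the passenger subunit that is also counted among the inhibitors of apoptosis, had the largest matched difference of the 12 probe sets, 1.32 log2 units (SE 0.25), or 2.50-fold. It read 193, 127 and 101 in the lymph node, heart and subcutaneous metastases of mouse 3, against 67.1 in the primary tumor. In mouse 1 it read 127, 117 and 78.6, against 29.0 in the primary tumor, and in mouse 2 the metastasis read 131, against 38.0 in the primary tumor. Each of these 7 metastases was brighter than all 7 primary tumors. In mouse 4 the metastases read 45.7 and 32.8, against 23.6 in the primary tumor. Both lay inside the range of all primary tumors, 16.5 to 67.1. The unadjusted p was 0.000333 and the adjusted p 0.0651 in limma.

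Incenp, the scaffold of the passenger complex, was measured by 3 probe sets that did not give the same answer. At 1439436_x_at the metastases read 54.4 to 247 with a median of 153, against 38.0 to 93.9 with a median of 49.1 in the matched primary tumors. All 9 metastases were above their own primary tumor, and the difference was 1.23 log2 units (SE 0.26, adjusted p = 0.0983 in limma). At 1423092_at the difference was 0.63 (SE 0.21, adjusted p = 0.268) and 8 of 9 metastases were higher. At 1423093_at it was 0.22 (SE 0.16, adjusted p = 0.668), with the pleural metastasis of mouse 4 at 70.8, against 96.6 in its primary tumor. The letter x in a probe set name marks probes that are shared with other sequences of the array's design. Over 16 tumors, which include several of the same mice, 1439436_x_at correlated with 1423092_at at 0.83 and with 1423093_at at 0.36.

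Aurkb, the catalytic subunit, also had 2 unlike probe sets. At 1424128_x_at the metastases read 76.1 to 115, against 77.3 to 92.9 in the matched primary tumors, and the difference was 0.14 log2 units (SE 0.10, adjusted p = 0.655 in limma). At 1451246_s_at, whose probes can match more than 1 transcript, they read 14.3 to 37.8, against 7.20 to 16.4 in the matched primary tumors. All 9 metastases were above their own primary tumor there, with a difference of 0.84 (SE 0.30, adjusted p = 0.313), but that of the mouse 3 lymph node was only 1.00-fold. The 2 Aurkb probe sets correlated at 0.07 over the 16 tumors.

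Nek2, a centrosomal kinase that acts in centrosome separation, showed the smallest difference. The metastases read 64.2 to 107 with a median of 87.0, against 67.8 to 87.2 with a median of 82.1 in the matched primary tumors. The difference was 0.10 log2 units (SE 0.15, 95% confidence interval −0.23 to 0.43, adjusted p = 0.856 in limma), and 6 of 9 metastases were above their primary tumor. Melk, a kinase expressed in dividing and progenitor cells, had a difference of 1.06 (SE 0.40, adjusted p = 0.344). It read 62.5, 47.6 and 32.1 in the metastases of mouse 1, against 13.2 in the primary tumor, and 36.3 in the metastasis of mouse 2, against 6.61 in the primary tumor. In mouse 3 the lymph node metastasis read 38.6, above the 27.9 of the primary tumor, but the heart and subcutaneous metastases read 19.8 and 16.1, below it.

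**Figure D2:**
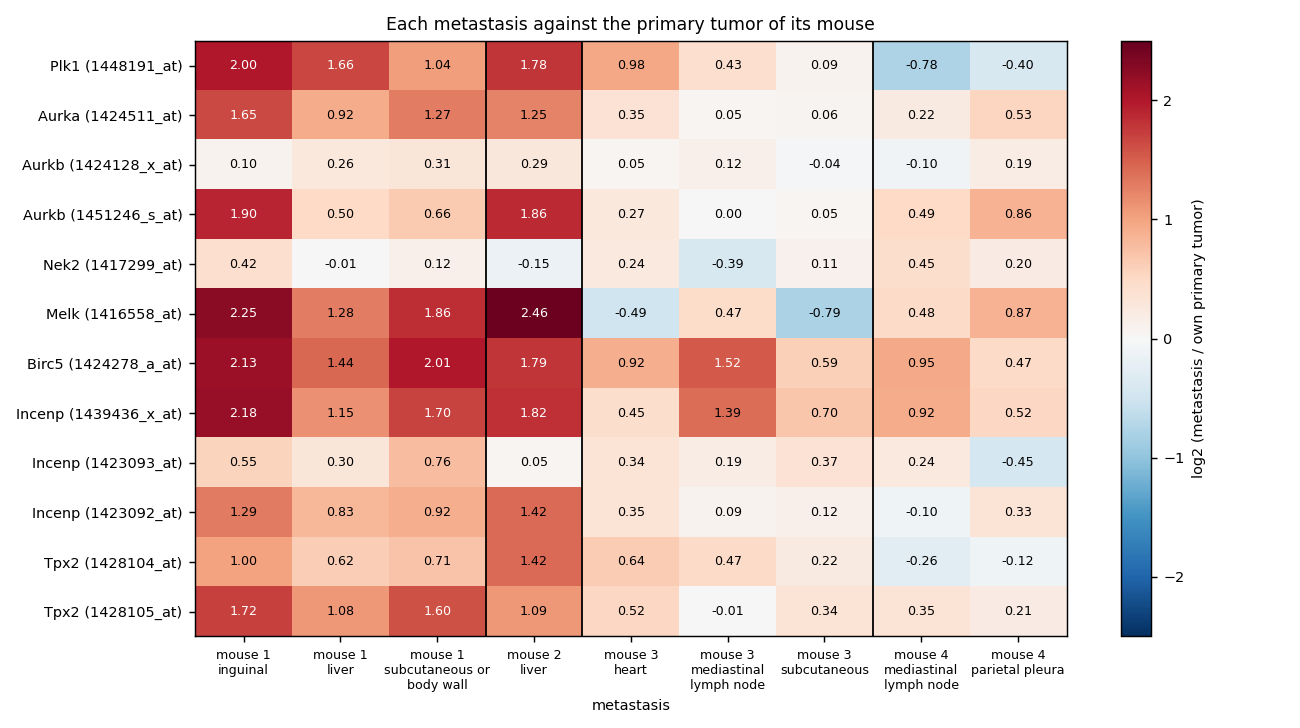
Log2 ratio of each of the 9 metastases (columns, by mouse) to its own primary tumor for the 12 probe sets (rows), with red for higher in the metastasis. The columns of mice 1 and 2 are red in nearly every row, and those of mice 3 and 4 are paler. Blue cells there include Plk1 in mouse 4 and Melk in the heart and subcutaneous metastases of mouse 3. Others are Nek2 in the lymph node metastasis of mouse 3 and Incenp 1423093_at in the pleural metastasis of mouse 4.

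Seen by animal, the 3 metastases of mouse 1 were all above their primary tumor at 11 of 12 probe sets, and the metastasis of mouse 2 at 11 of 12. In mouse 3 this held at 8 of 12 and in mouse 4 at 7 of 12, where another 2 probe sets, of Plk1 and Tpx2, were below in both metastases. The median log2 ratio over the 8 genes was 1.82, 1.16 and 1.04 in the inguinal, body wall and liver metastases of mouse 1, and 1.60 in mouse 2. It was 0.45, 0.40 and 0.10 in the lymph node, heart and subcutaneous metastases of mouse 3, and 0.34 and 0.33 in the pleural and lymph node metastases of mouse 4. The median over all genes lay between −0.08 and 0.07 in each of the 9. In an F test of the difference between mice in limma, 3 of 12 probe sets reached an unadjusted p of 0.05, Tpx2 1428104_at (0.0249), Plk1 (0.0410) and Incenp 1423092_at (0.0491), where 7.12% of all probe sets did. None of the 12 passed after adjustment (adjusted p from 0.614 to 0.998), and 28 of all probe sets did.

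Setting the 9 metastases against all 7 primary tumors, with the mouse as a random block, adds the 3 primary tumors that the matched fit cannot use. It shares its metastases and 4 primary tumors with the first comparison. All 12 differences were again positive. At an unadjusted p of 0.05 in limma 10 of 12 were higher in metastases, where 5.93% of all probe sets were. After adjustment 0.283% of all probe sets passed as higher, and 2 of 12 did. These were Birc5, which averaged 106 ± 48.7 in metastases (SD, n = 9) and 35.8 ± 16.1 in primary tumors (SD, n = 7), and Tpx2 1428105_at, which averaged 56.4 ± 18.0 in metastases and 30.3 ± 7.19 in primary tumors. Birc5 rose by 1.45 log2 units (SE 0.30, adjusted p = 0.0263) and Tpx2 by 0.84 (SE 0.19, adjusted p = 0.0427). Melk, at 32.0 ± 16.1 in metastases and 11.3 ± 7.97 in primary tumors, differed by 1.44 (SE 0.36, adjusted p = 0.0621). For Aurka the adjusted p was 0.0678, for Plk1 0.173 and for Nek2 0.543. For 0 of 12 probe sets did all 9 metastases lie above all 7 primary tumors, as 0.0575% of all probe sets did.

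The Birc5 call was lost when the body wall metastasis of mouse 1 (adjusted p = 0.0523), the liver metastasis of mouse 2 (0.0675) or the primary tumor of mouse 1 (0.0814), mouse 2 (0.0596) or mouse 4 (0.0593) was left out of the limma fit, and without the mouse as a block (0.0622). The Tpx2 call was kept in only 5 of 16 fits that left out 1 tumor, with adjusted p up to 0.136 without the primary tumor of mouse 1.

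**Figure D3:**
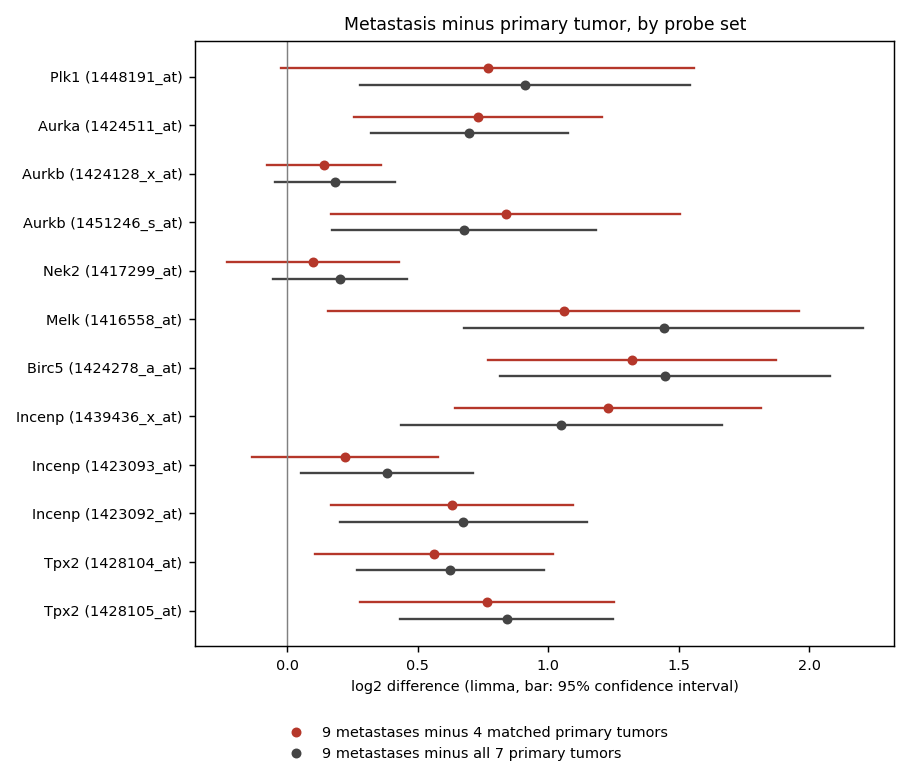
Log2 difference between metastases and primary tumors for the 12 probe sets, with limma 95% confidence intervals, for the 4 matched primary tumors (red, upper) and all 7 primary tumors (grey, lower). Every point lies right of 0, and the intervals of Nek2 and Aurkb 1424128_x_at include 0 in both fits.

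Metastases were next compared by site, 4 in the chest cavity (heart, mediastinal lymph nodes, pleura) and 5 outside it. All 12 differences were negative, with a median of −0.51 log2 units, against −0.01 over all probe sets. Plk1 averaged 49.4 ± 23.5 in chest metastases (SD, n = 4) and 98.6 ± 40.8 in those outside (SD, n = 5), with a 95% confidence interval of −1.96 to −0.042 for the log2 difference (SE 0.42, unadjusted p = 0.0426 and adjusted p = 0.600 in limma). On the log2 scale Incenp 1423092_at differed by −0.76 (SE 0.29), Tpx2 1428105_at by −0.65 (SE 0.21) and Tpx2 1428104_at by −0.52 (SE 0.23). These 4 of 12 probe sets were lower in the chest at an unadjusted p of 0.05 in limma, where 5.16% of all probe sets were, and 0 of all 22626 probe sets passed after adjustment. The exact two-sided permutation p over 126 arrangements of the 9 metastases was 0.0317 for Incenp 1423092_at and for Tpx2 1428105_at, 0.0714 for Tpx2 1428104_at, 0.0794 for Plk1, and 0.0873 to 0.698 for the other 8 probe sets. These arrangements moved the site label over all 9 metastases without regard to the mouse, so this p does not allow for metastases that share an animal.

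Site and mouse cannot be told apart here, since all metastases of mice 1 and 2 lay outside the chest and both of mouse 4 inside it. Only mouse 3 had both kinds. With the mouse as a block, which rests on mouse 3 alone, 9 of 12 probe sets turned round, and the difference was 0.61 for Plk1, 0.63 for Birc5, 0.78 for Melk and 0.34 for Tpx2 1428104_at, with 0 of 12 at an unadjusted p of 0.05 in limma. In mouse 3 Plk1 read 80.1 and 54.8 in the heart and lymph node metastases, against 43.3 in the subcutaneous one. The summed intensity of 9 proliferation markers was 1129 to 2540 in chest metastases and 1771 to 5234 in those outside, and that of 5 hepatocyte markers was 157 to 1713 in chest metastases and 309 to 7498 in those outside. Their part in the site difference was not tested.

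**Figure D4:**
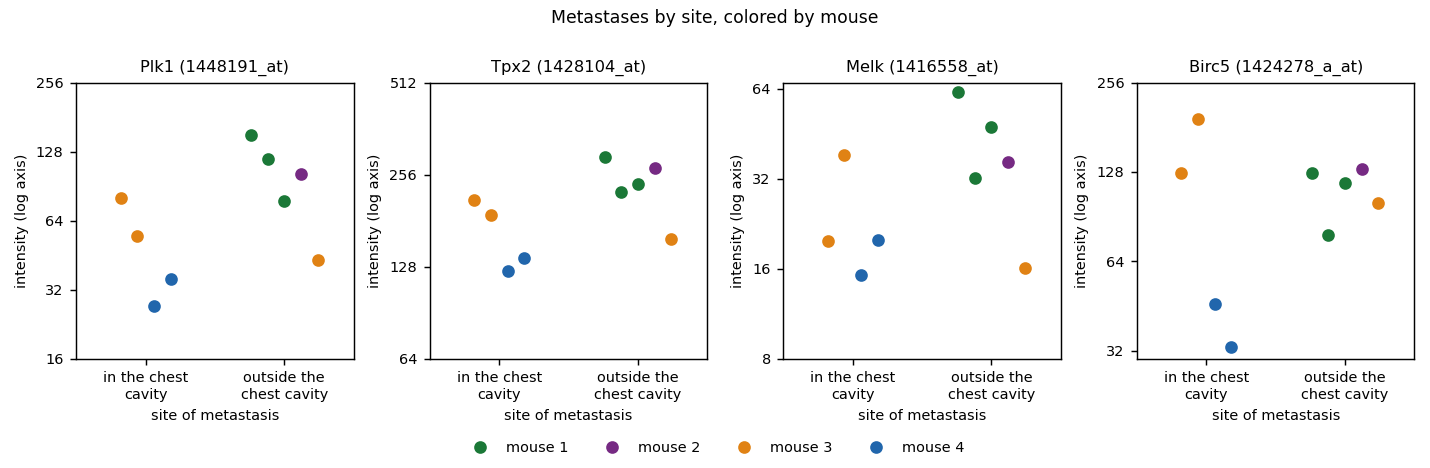
Intensity (log axis) of Plk1, Tpx2 (1428104_at), Melk and Birc5 in the 4 chest metastases (left) and the 5 outside the chest cavity (right), colored by mouse. The 2 lowest chest values of Plk1, Tpx2 and Birc5 are those of mouse 4 (blue), and within mouse 3 (orange) the subcutaneous metastasis is lower than both chest metastases in all 4 panels.

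Among primary tumors, the 4 matched ones were compared with the 3 from mice without profiled metastases. Plk1 averaged 38.7 ± 7.16 in matched tumors (SD, n = 4) and 29.8 ± 7.72 in the others (SD, n = 3), and Birc5 averaged 39.4 ± 19.4 in matched tumors and 30.9 ± 12.5 in the others. Melk read 27.9, 13.2, 10.9 and 6.61 in matched tumors, against 10.5, 5.33 and 4.66 in the others, so the groups overlapped. At an unadjusted p of 0.05 in limma 1 of 12 probe sets differed, against 20.6% of all probe sets. This was Incenp 1423093_at, with 0.55 log2 units (SE 0.20, unadjusted p = 0.0315, exact permutation p = 0.0286), the smallest exact p that 35 arrangements allow. After adjustment 0 of 12 passed, against 231 of all probe sets. The median difference of the 12 probe sets was 0.19, against 0.06 over all probe sets. The tumor of mouse 6, the only female, had the highest Incenp 1439436_x_at value of all primary tumors, 142.

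The mean of the 8 genes, each centred over the 16 tumors on the log2 scale, was highest in the inguinal metastasis of mouse 1 (1.05), then in its body wall metastasis (0.71) and in the metastasis of mouse 2 (0.64). The primary tumor of mouse 3 stood at rank 8 of 16, at 0.01, above both metastases of mouse 4 (−0.25 and −0.30) and all other primary tumors. The lowest was the primary tumor of mouse 5, at −0.92. Against the mean of the other members, Tpx2 1428104_at correlated at 0.93, Incenp 1423092_at at 0.91 and Tpx2 1428105_at at 0.90. Melk and Plk1 reached 0.87, Birc5 0.86 and Aurka 0.85. Lower values were those of Incenp 1439436_x_at (0.76), Aurkb 1424128_x_at (0.62), Aurkb 1451246_s_at (0.60), Incenp 1423093_at (0.58) and Nek2 (0.40). The closest pair of different genes was Plk1 and Tpx2 1428104_at, at 0.96. Birc5 and Incenp 1439436_x_at followed each other at 0.88. These are descriptions over 16 tumors, several of which share a mouse.

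The 10 genes most like the member mean over the 16 tumors, of those with a single symbol, were Top2a, Ube2c, Ncapg, Nusap1, Cdk1, Hells, Snrpg, Ncapd2, Ect2 and Ahcy, with Pearson r from 0.931 to 0.956. Top2a, topoisomerase II alpha, averaged 247 in metastases and 85.3 in all primary tumors. Ube2c, the ubiquitin-conjugating enzyme of the anaphase-promoting complex, averaged 343 in metastases and 98.7 in all primary tumors.

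Other genes of mitosis were taken from lists, each gene at its brightest probe set, in the matched comparison. Of 18 other mitotic kinases, 5 were higher at an unadjusted p of 0.05 and 0 lower, with a median of 0.25 log2 units. These were Cdk1 (1.60), the kinase that starts mitosis, the checkpoint kinases Bub1b (1.57), Bub1 (1.31) and Ttk (0.59), and Plk4 (0.51), which duplicates centrioles. The values of Plk3 (−0.26), Wee1 (−0.07) and Aurkc (0.29) did not reach that p. Among 15 partners and substrates, 7 were higher and 0 lower, among them Ect2 (1.48), the exchange factor that starts cytokinesis, the Plk1 partner Kif20a (0.97) and the Aurora A substrate Tacc3 (0.89). The value of the spindle motor Kif11 was −0.01 and that of Numa1 −0.24.

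Of 16 genes of the proteolysis of mitotic kinases 2 were higher, Ube2c (1.44) and Cdc16 (0.38), while the activators Cdc20 and Fzr1 were at 0.02 and 0.14. Of 13 genes of G2/M transcription 2 were higher, Tfdp1 (0.70) and Mybl2 (0.48), and Foxm1, the forkhead factor of this program, was at 0.08. Of 12 mitotic phosphatase genes and their inhibitors 0 were higher and 1 was lower, Ppp2cb (−0.44). In the inhibitor of apoptosis family, 2 of 7 were higher, Birc5 itself and Naip5 (0.53), while Xiap was at −0.28. After adjustment 0 genes of these lists passed in limma. Among all genes 4.35% were higher and 7.12% lower at the unadjusted p.

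**Figure D5:**
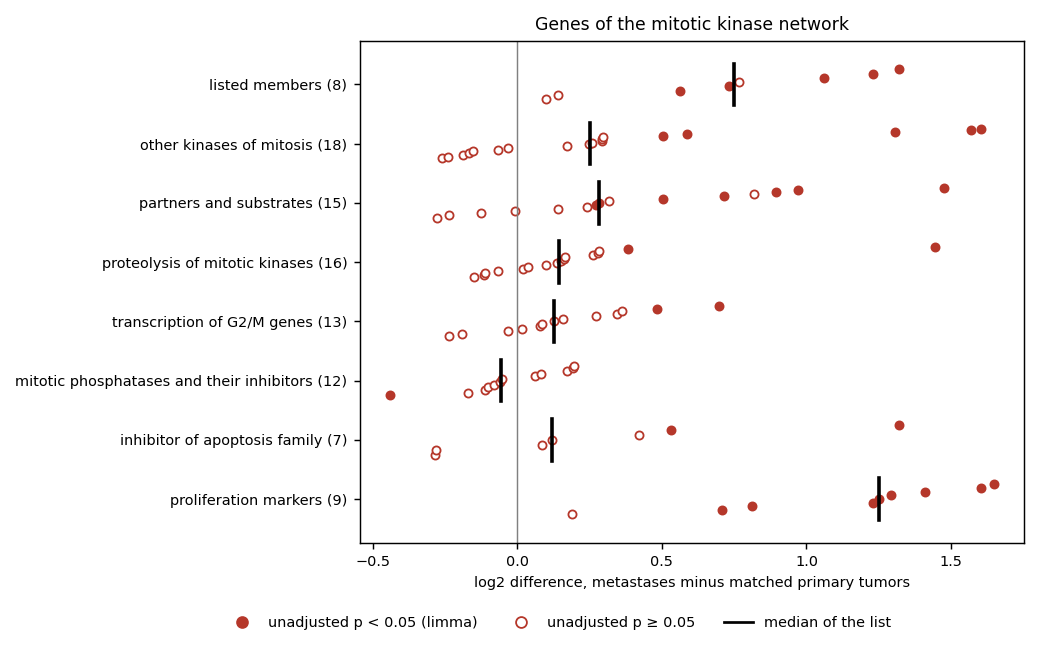
Log2 difference between metastases and matched primary tumors for each gene of 8 lists (rows, number of genes in brackets), with filled points at an unadjusted limma p under 0.05 and black bars at the list median. The medians are 0.75 for the listed members and 1.25 for the proliferation markers, and lie between −0.06 and 0.28 for the other 6 lists.

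Markers of cycling cells and of cell types moved in the same comparison. Of 9 proliferation markers 8 were higher, with a median of 1.25 log2 units, led by Mki67 (1.65). Among them, Cdk1 (1.60) was also counted above with the other mitotic kinases. The summed intensity of the 9 markers was 1129 to 5234 in metastases and 896 to 1558 in matched primary tumors. The 2 lowest sums among metastases were those of mouse 4, at 1129 and 1182. Of 8 alveolar type 2 markers 7 were lower (median −2.31), with summed intensities of 1176 to 28469 in metastases and 17999 to 41316 in matched primary tumors. Of 5 club cell markers 5 were lower (−1.78), with sums of 312 to 812 in metastases and 2031 to 5084 in matched primary tumors. Of 5 fibroblast markers 2 were higher and 1 lower, with sums of 2173 to 16874 in metastases and 2105 to 5668 in matched primary tumors.

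Of 6 general epithelial markers 3 were lower and 0 higher (median −0.82), Epcam (−2.38), the tight junction gene Cldn7 (−1.66) and Krt19 (−0.92), while the values of Krt8 (−0.39), Krt18 (−0.17) and Cdh1 (−0.72) did not reach the unadjusted p of 0.05 in limma. Their summed intensity was 3862 to 12196 in metastases and 7719 to 14421 in matched primary tumors. Of 6 endothelial markers 1 was lower, Vwf (−4.61), which encodes von Willebrand factor, and the sum was 499.9 to 1145 in metastases and 816 to 1192 in matched primary tumors. Of 5 macrophage markers 1 was lower, Cd68 (−0.80), and the sum was 994 to 3821 in metastases and 1461 to 1782 in matched primary tumors. Of 6 lymphocyte and 5 skeletal muscle markers 0 reached that p.

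Of 5 hepatocyte markers 1, Alb, was higher, and the summed intensity was 4943 to 7498 in the 4 metastases of mice 1 and 2, also in those outside the liver, 157 to 1713 in the other 5 metastases and 538 to 929 in matched primary tumors. Heart muscle markers summed to 3684 in the heart metastasis and at most 138 in any other tumor. The part of these markers in the differences of the mitotic genes was not tested. Without the heart metastasis the matched median of the 8 genes was 0.72 log2 units, and 8 of 12 probe sets reached an unadjusted p of 0.05 in limma.

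Leaving out single tumors moved the matched count. It was 5 of 12 without the liver metastasis or the primary tumor of mouse 2, 5 without all tumors of mouse 1, and 3 without the primary tumor of mouse 1 alone. With 1 mean ratio per mouse, the median was 0.79 log2 units and 5 of 12 probe sets reached the unadjusted p. Birc5, Aurka, both Aurkb probe sets, Incenp 1439436_x_at, Incenp 1423092_at and Tpx2 1428105_at, 7 of 12, had a positive mean ratio in 4 of 4 mice, a number of animals for which an exact two-sided sign test cannot give a p under 0.125.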

How the data were processed

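Tumors were dissected, RNA was extracted with Trizol and an RNeasy kit, and biotin-labelled cRNA was hybridized to Affymetrix Mouse 430A arrays. The deposited intensity values were made by the authors in dChip, with the perfect match minus mismatch model after normalization to an invariant set of probe sets, with 1 array per tumor and no pooling. Of 22690 rows 64 controls were left out. Of the other 22626 probe sets, 20380 map to a single symbol (12393 genes), 691 to several and 1555 to none. All 16 value columns were used. Array number, not read depth, limits the precision.

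Intensities were floored at 1 before log2 transformation. Linear models were fitted in limma 3.58.1 (R 4.3.3) with empirical Bayes variances and Benjamini-Hochberg adjustment over all probe sets. The pairing by mouse comes from the labels and the study's methods. In the fit of 16 tumors, mouse entered as a random effect (estimated correlation 0.238, kept fixed when a tumor was left out or a robust prior used). The fit between mice was an F test, and site and primary tumor groups also had exact two-sided permutation tests. The models were tested on simulated data without a mouse effect, so that test could not check how tumors of 1 mouse were handled. Alternatives were floors at the 10th (5.54) and 25th percentile (24.3), dim probe sets left out, quantile normalization, centring on the array median, a variance trend with a robust prior, other pairings, the methods' t-test, and single tumors or mice left out.

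All probe sets of the listed genes were reported. Other genes were named as members of gene lists or as the 10 most correlated with the member mean. Members and lists were chosen with earlier results of these data known, so their pattern is not independent evidence. Promoters are from RefSeq, GRCm38.p6. No column of the authors' own comparisons was used.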

Additional observations from a re-analysis of the deposited data

Results flagged for a closer look

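In 24 groups of samples tested for a value far from the others, 1 stood out, and chance alone gives about 1 in 20. It was Aurkb 1424128_x_at in the primary tumor of mouse 5, at 57.8, while the next lowest of the 7 primary tumors was at 77.3.

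The other results stand out because metastases of different mice moved opposite ways relative to their own primary tumor. For Plk1 all metastases of mouse 1 and of mouse 3 were above and both of mouse 4 below, so that the mean log2 ratio differed by 2.16 between mice 1 and 4 and by 1.09 between mice 3 and 4. For Tpx2 1428104_at the same gaps were 0.96 between mice 1 and 4 and 0.63 between mice 3 and 4. These pairs of mice were not tested singly. The F test over the 4 mice gave an unadjusted p of 0.0410 for Plk1 and 0.0249 for Tpx2 1428104_at, with adjusted p of 0.686 and 0.614 in limma.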

How the results depend on the processing

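In the matched comparison, 8 of 12 probe sets at an unadjusted p of 0.05 became 5 with 1 mean ratio per mouse, and 3 to 9 when single tumors or mice were left out. It stayed at 8 without the mouse block and was 6 to 9 under the other floors, scalings and priors. Of 311 values of single probe sets and settings there, 305 kept their direction and side of the threshold and 6 crossed it. Birc5 and Incenp 1439436_x_at passed adjustment in limma with dim probe sets left out (0.0218 and 0.0355), where fewer probe sets were tested, and with a variance trend and robust prior (0.0202 and 0.0311). The methods' t-test called 4 of 12 at its threshold of 0.01, where 3.54% of all probe sets were higher, and 2 after adjustment.

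With all 16 tumors, 18 of 274 such values lost the call and 7 gained it, none changed direction, and without the replicate block 0 of 12 passed adjustment in place of 2 (adjusted p 0.0622 for Birc5 and 0.0630 for Tpx2 1428105_at in limma). The chest count of 4 became 2 with a floor at the 25th percentile and 1 to 7 with single metastases left out. With the mouse as a replicate block it was 0, and the median of −0.51 became 0.28. In that fit Plk1 was 0.61, Aurka 0.14, Aurkb 0.12 and 0.085, Melk 0.78, Birc5 0.63, Incenp 1439436_x_at 0.22, Incenp 1423092_at 0.10 and Tpx2 1428104_at 0.34, all informed by mouse 3 alone. With single metastases left out, Nek2 ran from −0.19 to 0.026 and Aurkb 1451246_s_at from −0.27 to 0.076.

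Between primary tumors the count of 1 was 0 after quantile normalization and 0 after centring, and 0 to 2 with single tumors left out. The median over the 8 genes, each at its brightest probe set, was 0.23 and ran from −0.0044 to 0.28 with single tumors left out. Incenp 1423092_at was −0.025 after quantile normalization and −0.024 after centring, and −0.25 to 0.22 with tumors left out. Aurkb 1424128_x_at then ran from −0.088 to 0.25 and Birc5 from −0.068 to 0.55. The cause of these shifts was not tested. Of 71 values of the test between mice 0 changed side of the adjusted threshold, but that test was not repeated with tumors left out. The number of arrays and the low intensity of Melk and Aurkb 1451246_s_at limit the precision.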
